A study of Mus musculus with 4 samples.

Results

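A set of 9 genes of the photoreceptor ribbon synapse were followed in mouse retina after inhibition of miR-124-3p. They were chosen by name, for the known place of their proteins at photoreceptor terminals, and are Bsn, Pclo, Ctbp2, Cacna1f, Cacna2d4, Cabp4, Unc119, Dlg4 and Elfn1, 9 of the 48897 genes listed. Photoreceptors release glutamate continuously in darkness, from terminals in which a plate-like ribbon holds synaptic vesicles beside L-type calcium channels. Light lowers calcium entry and so lowers release, and the postsynaptic cells are bipolar and horizontal cells. The terminals of rods and cones assemble their ribbons in the first postnatal weeks of the mouse, after the cells have taken their identity.

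The data were 4 RNA-Seq libraries of whole retina from C57BL/6 mice (C57BL/6J in the methods), whose genotype is given as wide type. On postnatal day 3, left eyes received 1 μl with 0.6 nmol of a miR-124-3p antagomir, which is an antisense molecule against the mature microRNA (anti-miR-124 group, antagomir libraries), and right eyes the same amount of a scrambled sequence (NC group). Retinas were collected on postnatal day 9, 6 days later, and mixed, with at least 2 litters in each group. There were 2 libraries per group, and each left-eye library shares a number with 1 right-eye library. These pairs are named A and B, as the labels do not tell which is replicate 1. Treatment and eye cannot be told apart in this design. The methods report that quantitative PCR showed a significant knockdown of miR-124-3p before sequencing. The mature microRNA was not measured in these libraries, so the knockdown could not be checked here. The methods give a number of mixed retinas per group and a single biological replicate, but elsewhere speak of 2 biological replicates. Whether the 2 libraries of a group came from separate pools is not stated, so SDs and p-values measure only the spread between these libraries.

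Between 16317239 and 18726963 reads were counted on genes per library, and 17766 genes passed the filter on low counts, all 9 ribbon synapse genes among them. The defining photoreceptor markers were present in every library, with Nrl, the rod transcription factor, at 1338 to 1662 TPM (a transcript level scaled for gene length and library size) and Opn1sw, a cone opsin, at 119 to 262 TPM. The NC library of pair A held 6.51% of its TPM in 21 lens genes, against 0.0131% to 0.0185% in the other 3 libraries. This share lowers the TPM of all its other genes, and sums of them. Cone markers were lower in both antagomir libraries than in both NC libraries for 9 of 12 genes. No gene passed the adjusted threshold between the groups by edgeR, with 694 at an unadjusted p under 0.05, whereas DESeq2 called 33, none of them a ribbon synapse gene.

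Ctbp2 has several starts, and only one of them gives the ribbon protein. RIBEYE, the main component of the ribbon, is read from an internal start of Ctbp2, whereas the transcriptional corepressor CtBP2 is read from starts farther upstream. In the GENCODE annotation of GRCm38, transcript Ctbp2-214 starts inside the gene (chr7:132987578-133015248, minus strand) and codes for 988 residues, while Ctbp2-201 (chr7:132987621-133123367) codes for 445 and Ctbp2-209 (chr7:132987584-133123166) for 420. The deposited values give 1 count per gene, so they do not separate RIBEYE from CtBP2. The RefSeq window around the internal start, 250 bases before to 50 after it (chr7:133015198-133015497, minus strand, GRCm38.p6), is shown because it belongs to the ribbon form, with a match to the letters TAATCC or the reverse complement GGATTA, the core motif of the photoreceptor factor CRX, in capitals.
Ctbp2 internal start: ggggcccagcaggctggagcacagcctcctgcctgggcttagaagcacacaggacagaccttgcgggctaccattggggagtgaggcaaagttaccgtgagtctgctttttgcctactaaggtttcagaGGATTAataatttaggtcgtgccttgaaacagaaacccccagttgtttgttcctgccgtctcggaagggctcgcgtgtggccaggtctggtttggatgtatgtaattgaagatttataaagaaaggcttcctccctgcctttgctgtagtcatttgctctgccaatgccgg

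In all, 12 RefSeq windows of 300 bases were found for 7 of the 9 genes, and Cacna2d4 and Cabp4 had none in the table used. The CRX letters, on either strand, stood in 3 of the 12 windows, against 7.06% of 32544 windows of all genes. The other matches were in a window of Unc119 (chr11:78345334-78345633, plus strand) and a window of Dlg4 (chr11:70016953-70017252, plus strand). The 30 bases around each match are printed to show the letters in place, the first at chr11:78345454-78345483 and the second at chr11:70017172-70017201. The match began at base 133 of the Unc119 window and base 232 of the Dlg4 window, counted from the window's upstream end. In neither gene did this window span the gene start listed with the counts. The windows that do (chr11:78343245-78343544 for Unc119 and chr11:70018355-70018654 for Dlg4) held no CRX letters. TGCTGA or TCAGCA, a part of the motif of the rod factor NRL that does not overlap the CRX letters, stood in 1 of the 12 windows (Unc119), against 19.5% of all windows. These matches describe the letters only and were not tied to binding.
Unc119 match: tttgctgtttctGGATTAccaggccttgaa
Dlg4 match: ttcaatcttggcGGATTAgggagattaaat

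The levels of the 9 genes spanned a wide range within the upper part of all listed genes. Unc119, a lipid-binding chaperone that carries acylated proteins such as transducin and is found at photoreceptor terminals, was at 1158 ± 53.4 TPM in the NC group and 1288 ± 75.5 TPM in the anti-miR-124 group (SD, n = 2 each). Its mean level lay above that of 99.9% of all listed genes, and the mean level of Bsn, the lowest of the 9, above that of 86.3%. The listed genes include 21733 to 22291 without a count in a given library. Dlg4, which encodes the membrane scaffold PSD-95, followed at 359 ± 23.8 and 385 ± 0.768 TPM, and Ctbp2 at 207 ± 14.3 and 222 ± 0.0050 TPM. Cacna2d4, the α2δ4 subunit that brings the channel to the terminal, was at 161 ± 21.5 and 172 ± 1.22 TPM. Elfn1, an adhesion protein by which rods contact mGluR6 on rod bipolar cells, was at 67.8 ± 4.57 and 72.6 ± 2.20 TPM. The 4 lowest were Cabp4 (49.6 ± 1.28 and 49.3 ± 0.980 TPM), Cacna1f (50.4 ± 3.37 and 47.7 ± 2.44 TPM), Pclo (37.0 ± 8.30 and 41.2 ± 0.988 TPM) and Bsn (27.9 ± 6.22 and 33.5 ± 1.13 TPM). The lens share of the NC library of pair A enters these TPM values and so the NC SDs. With the lens genes left out, the NC values in pairs A and B were 1199 and 1196 TPM for Unc119 and 211 and 217 TPM for Ctbp2. They still lay apart for Cacna2d4 (157 and 177 TPM), Pclo (33.3 and 42.9 TPM) and Bsn (25.1 and 32.3 TPM). In the plot of TPM by library, the 5 upper genes form separate steps.

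**Figure D1:**
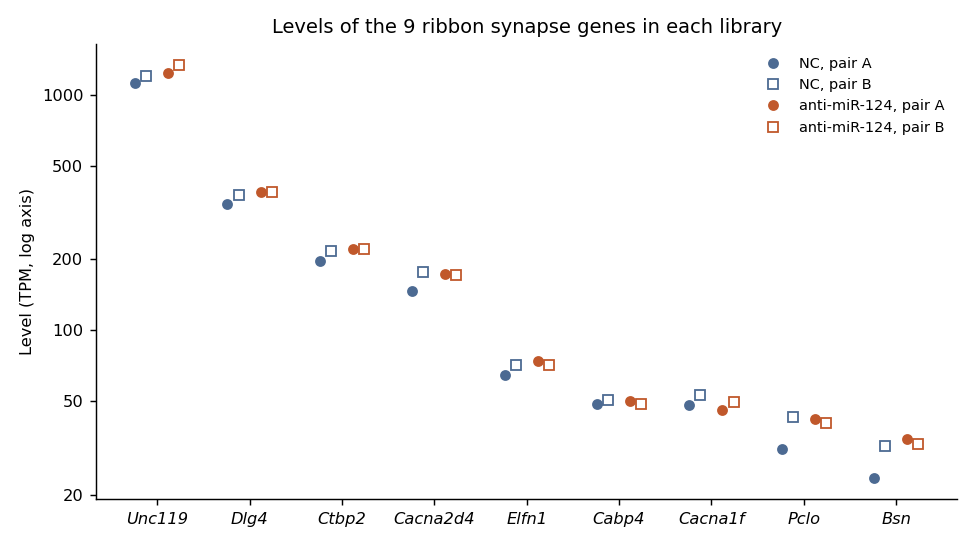
Level of each gene in TPM (log axis) in the 4 libraries, with filled circles for pair A and open squares for pair B, blue for NC and orange for anti-miR-124. The ranges of neighbouring genes over the 4 libraries are separate down to Elfn1, while Cabp4 overlaps Cacna1f and Pclo overlaps Bsn. The NC library of pair A is the lowest of the 4 for each gene except Cabp4 and Cacna1f, among them Pclo (31.2 TPM) and Bsn (23.5 TPM).

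By mean level over the 4 libraries, Unc119 was 3.29-fold above Dlg4, Dlg4 1.73-fold above Ctbp2, Ctbp2 1.29-fold above Cacna2d4 and Cacna2d4 2.37-fold above Elfn1. Each of these steps held in all 4 libraries with no overlap of the ranges. Cabp4 and Cacna1f did not differ beyond their spread, with a ratio of 1.01 and the order Cabp4 over Cacna1f in 2 of 4 libraries. Pclo was 1.27-fold above Bsn, higher in 4 of 4 libraries although their ranges overlapped. The order was the same when levels were counts per kilobase scaled to the library total, and when the lens genes were left out. In bulk retina, fewer cells of a type and less RNA per cell cannot be told apart, and several of these genes are also active in other retinal neurons.

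Several ribbon synapse genes are the photoreceptor form of a family, and the levels of their relatives in the same libraries were set beside them. Cacna1f, the pore-forming Cav1.4 subunit of the photoreceptor calcium channel, was 2.92-fold above Cacna1d (16.8 TPM, Cav1.3), 11.4-fold above Cacna1c (4.31 TPM, Cav1.2) and 56.4-fold above Cacna1s (0.869 TPM, the skeletal muscle form). Cacna2d4 exceeded Cacna2d2 (52.2 TPM) by 3.19-fold, Cacna2d3 (29.4 TPM) by 5.66-fold and Cacna2d1 (29.3 TPM) by 5.68-fold. Thus the photoreceptor channel subunits were the highest of the L-type pore genes and of the Cacna2d genes in each of the 4 libraries. Other calcium channel pore genes were not compared. Dlg4 stood 7.92-fold to 10.9-fold above Dlg1, Dlg2 and Dlg3, Unc119 was 23.4-fold above Unc119b (52.2 TPM), and Elfn1 was 4.69-fold above Elfn2 (14.9 TPM). The order was the other way for 2 genes. Ctbp1 (258 TPM), the corepressor related to CtBP2, was above Ctbp2 in 4 of 4 libraries, and Cabp1 (69.3 TPM), a neuronal calcium-binding protein, was above Cabp4 in 4 of 4 libraries. Cabp5 (37.9 TPM) and Cabp2 (3.28 TPM) were below Cabp4.

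**Figure D2:**
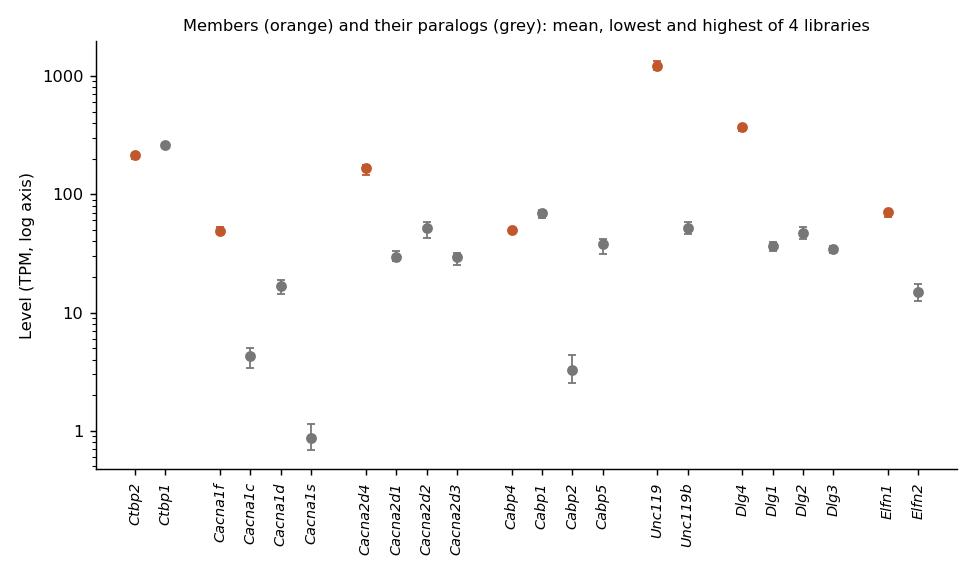
Mean level in TPM (log axis) over the 4 libraries for the ribbon synapse genes with relatives (orange) and those relatives (grey), with bars from the lowest to the highest library. Cacna1f, Cacna2d4, Unc119, Dlg4 and Elfn1 lie above each of their relatives, whereas Ctbp2 (214.6 TPM) lies below Ctbp1 (258 TPM) and Cabp4 (49.5 TPM) below Cabp1 (69.3 TPM).

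Between the groups, no ribbon synapse gene passed the test, and the fitted differences were small, from -0.13 (Cacna1f) to 0.22 (Bsn) on the log2 scale. By edgeR's quasi-likelihood test, with p-values adjusted by Benjamini-Hochberg over all 17766 genes, each of the 9 genes had an adjusted p = 0.989, as against 0% of all tested genes under 0.05. At an unadjusted p under 0.05 the count was 0 of 9, against 3.91% of all tested genes. In the following, values by library are CPM, counts scaled to library size with TMM factors, which compare libraries but not genes. Fold changes are anti-miR-124 over NC, with the standard error (SE) and, where given, the 95% interval.

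Of the ribbon and active zone scaffolds, Bsn encodes bassoon, the large protein that anchors the ribbon to the presynaptic membrane (chr9:108096022-108190419, minus strand, 17109 bases counted). It had 132 CPM in the NC library and 179.7 CPM in the antagomir library of pair A, and 166 and 169 CPM in those of pair B. Both antagomir libraries were above both NC libraries, but the low value was that of 1 NC library and the other 3 libraries lay close together. The log2 fold change was 0.22 (SE 0.12, 95% interval -0.06 to 0.51), or 1.17-fold. The difference within pair A was 0.44 and within pair B 0.02. It became 0.07 when the NC library of pair A was left out and 0.40 when that of pair B was left out.

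Pclo encodes piccolo, a relative of bassoon of which photoreceptors hold a short ribbon form, piccolino (chr5:14514916-14863465, plus strand, 22201 bases counted). Its values were 228 and 284 CPM in the NC and antagomir libraries of the first pair and 287 and 271 CPM in those of pair B. The groups overlapped, with the lowest and the highest value both in the NC group. This gave a log2 fold change of 0.11 (SE 0.11, 95% interval -0.17 to 0.39), pair A alone giving 0.32 and pair B -0.08. Leaving out the NC library of pair A turned it to -0.04. An antisense gene inside Pclo had 538 to 618 counts, and whether strand was used in counting is not given in the sources used here.

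Ctbp2, the ribbon gene itself (chr7:132987011-133123749, minus strand), had 338 and 353 CPM in pair A, then 340.2 and 348 CPM in pair B, NC first. The NC libraries lay close together, as did the antagomir libraries, which were both slightly higher. The log2 fold change was 0.05 (SE 0.06, 95% interval -0.10 to 0.20), pair A alone giving 0.06 and pair B 0.03.

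Bsn and Pclo have the longest counted sequences of the 9 genes, and length moved with the difference in pair A. Over all tested genes, the median log2 ratio of pair A ran from -0.08 for the 1353 genes of up to 1000 bases to 0.12 for the 250 genes over 15000 bases. In pair B it had the opposite order, from 0.02 to -0.09. Among the 250 longest genes, Bsn was above 95.6% in pair A but 78.8% in pair B, while Pclo was above 90.4% and 52.4%. The 2 NC libraries differed by 0.33 on the log2 scale for Bsn and for Pclo, against a median absolute difference of 0.13 over all tested genes. The part of gene length and of the lens-rich NC library in these differences was not tested.

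**Figure D3:**
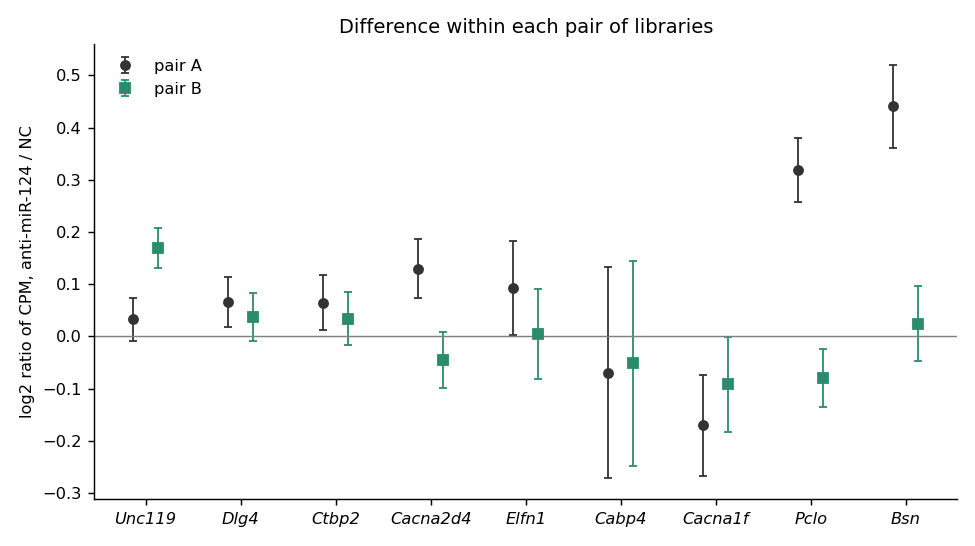
Log2 ratio of the anti-miR-124 to the NC library within pair A (dark circles) and pair B (green squares), in TMM-scaled CPM, with bars for the 95% interval of counting error alone. The gap between the pairs is widest for Bsn (0.44 and 0.02) and Pclo (0.32 and -0.08), and Cacna1f lies below 0 in both pairs (-0.17 and -0.09).

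Of the channel group, Cacna1f (chrX:7607070-7635196, plus strand) was the gene with the larger of 2 differences downward. It had 109.8 and 97.6 CPM in the NC and antagomir libraries of pair A and 110.3 and 103 CPM in those of pair B. The NC values were nearly alike and both anti-miR-124 values were lower. In TPM the groups overlapped, but not with the lens genes left out (NC 51.4 and 52.8 TPM, anti-miR-124 46.0 and 49.4 TPM). The log2 fold change was -0.13 (SE 0.07, 95% interval -0.30 to 0.04), or 0.913-fold. Counting error alone gave intervals of -0.27 to -0.07 within pair A and of -0.18 to -0.0020 within pair B. The pairs thus gave the same sign, but the fitted 95% interval ran from -0.30 to 0.04 and the gene was not called.

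Cabp4 encodes the calcium-binding protein that shifts the opening of Cav1.4 to lower voltages (chr19:4135423-4139723, minus strand). It rested on 388 to 415 counts per library, the fewest of the 9 genes. The NC and anti-miR-124 values were 24.1 and 23.0 CPM in pair A, then 22.8 and 22.0 CPM in pair B. The antagomir library was the lower one in each pair, but the groups overlapped. Its fitted log2 fold change was -0.06 (SE 0.09, 95% interval -0.28 to 0.16).

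Cacna2d4 (chr6:119236474-119352407, plus strand) had 282 and 309 CPM in pair A, then 311 and 302 CPM in pair B, NC first. The NC library of pair A was below the other 3 libraries, and the groups overlapped. Its fitted log2 fold change was 0.04 (SE 0.08, 95% interval -0.14 to 0.22), and -0.03 without that library. Lrtm2, on the other strand within Cacna2d4, had 679 to 806 counts, fewer than the 4546 to 5684 of Cacna2d4.

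Unc119 (chr11:78343495-78349164, plus strand) had the second largest non-overlapping difference upward after Bsn. It had 565 and 578 CPM in pair A, then 551 and 619.5 CPM in pair B, NC first. Both antagomir libraries were above both NC libraries, and the higher of them was that of pair B. This gave a log2 fold change of 0.10 (SE 0.06, 95% interval -0.04 to 0.25), or 1.07-fold, pair A alone giving 0.03 and pair B 0.17. In contrast to Bsn, the larger part of the difference lay in pair B.

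Dlg4 (chr11:70018455-70045535, plus strand) had 406 and 425 CPM in pair A, then 408 and 418 CPM in pair B, NC first. The NC libraries were nearly alike and both antagomir libraries were slightly higher. The log2 fold change was 0.05 (SE 0.06, 95% interval -0.09 to 0.20).

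Elfn1 (chr5:139907641-139974725, plus strand) had 117.1 and 124.9 CPM in pair A, then 117.6 and 118.0 CPM in pair B. The antagomir library of pair A stood above the other 3, which were nearly alike. Its fitted log2 fold change was 0.05 (SE 0.07, 95% interval -0.12 to 0.22).

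As a group, 5 of the 9 genes had the higher value in the antagomir library in each pair, against 22.8% of all tested genes, and 2 were lower in both, against 24%. The 5 higher genes were Bsn, Ctbp2, Unc119, Dlg4 and Elfn1, and the same 5 had groups that did not overlap, against 16.5% of all tested genes. Both counts were 4 with the size factors of DESeq2, and the smallest of the 5 differences within a pair was that of Elfn1 in pair B (0.0043). Cacna1f was the single gene with both antagomir libraries lower, against 16.8% of all tested genes. The median log2 fold change of the 9 genes was 0.05, beside 0.00070 for all tested genes, and 5 of the 9 lay between the quartiles of all tested genes (-0.10 and 0.10). For 4 genes (Ctbp2, Cacna1f, Unc119 and Dlg4) the difference between the groups was larger than both differences within a group, against 21.1% of all tested genes. None of these counts is a test of the list.

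**Figure D4:**
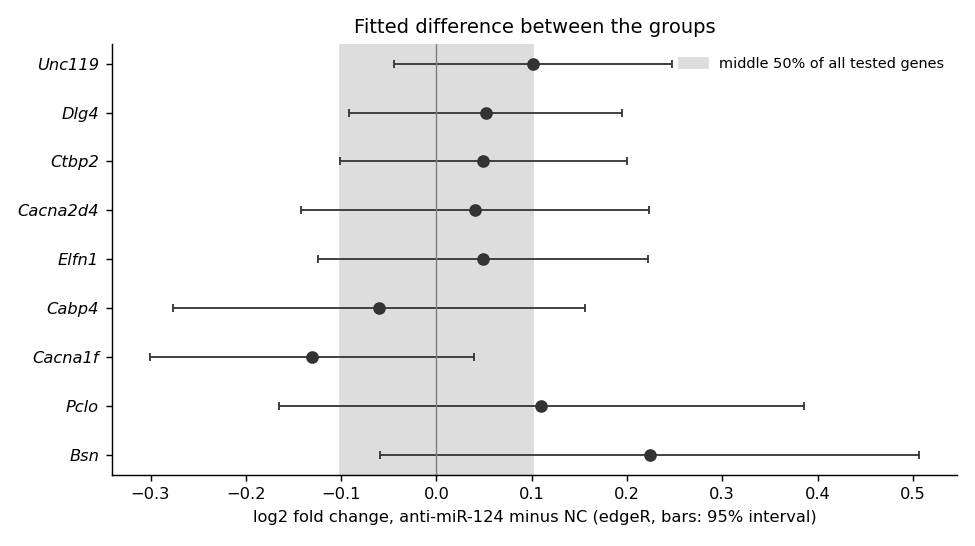
Log2 fold change of each gene, anti-miR-124 minus NC, from edgeR, with bars for the 95% interval and a grey band from the 25th to the 75th percentile of all tested genes. Each interval includes 0, and Bsn (0.22) and Cacna1f (-0.13) lie farthest from 0 on either side.

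The other genes of the terminal, in 4 lists, gave differences of the same small size. Of 34 tested, 0 had an unadjusted p under 0.05 by edgeR, against 3.91% of all tested genes. For the counts by pair that follow, 22.8% of all tested genes were higher and 24% lower in each pair. Among 8 other active zone scaffolds, 0 had the higher and 1 the lower antagomir value in each pair, and the median log2 fold change was 0.02. The lower one was Kif3a, a kinesin subunit found on ribbons (-0.10, SE 0.09). The most abundant, Ppfia2, a liprin at 104.9 TPM, had -0.02 (SE 0.08). Their median was 0.18 within pair A but -0.20 within pair B, so that the sign turned between the pairs as it did for Pclo.

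Of 11 synaptic vesicle and release genes, 2 were higher and 2 lower in each pair (median 0.01). Slc17a7, the vesicular glutamate transporter of photoreceptors, had a log2 fold change of 0.12 (SE 0.08), and Syp, the vesicle protein synaptophysin at 1343 TPM, had 0.09 (SE 0.05). Snap25, a membrane fusion protein at 1174 TPM, had -0.06 (SE 0.05). The mean level of Syp was close to that of Unc119 (1223 TPM).

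Of 10 other trans-synaptic and terminal matrix genes, 3 were higher and 0 lower in each pair (median 0.02). Egflam, which encodes pikachurin, the matrix protein between the photoreceptor terminal and the bipolar dendrite, had 0.12 (SE 0.07), while Lrit1, a leucine-rich repeat protein of the photoreceptor synapse at 245 TPM, had 0.0024 (SE 0.06). The small GTPases Arl3, which releases cargo from Unc119, and Arl2 had 0.03 (SE 0.07) and 0.08 (SE 0.11). In the list of 5 genes for calcium entry and extrusion, Cacnb2, the channel's β2 subunit, had -0.05 (SE 0.12), Atp2b1, a calcium pump of the plasma membrane, had -0.0028 (SE 0.07), and Kcnv2, which is a potassium channel subunit of photoreceptors and not a calcium protein, had 0.0023 (SE 0.07). That list had a median of 0.0023, with 0 genes higher and 1 lower in both pairs.

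Of the 14 relatives of the ribbon synapse genes, 2 were higher and 0 lower in each pair (median 0.0031). Unc119b had a log2 fold change of 0.14 (SE 0.07), close to the 0.10 of Unc119, and Cacna2d3 had 0.09 (SE 0.09). Ctbp1 had 0.0059 (SE 0.07) and Cabp1 had 0.01 (SE 0.08).

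Rod and cone markers had medians on either side of that of these genes. Of 14 rod markers, 7 were higher and 1 was lower without overlap, with a median log2 fold change of 0.07, and their summed level was 16525 and 18555 TPM in the NC libraries and 18225 and 19182 TPM in the antagomir libraries. The single rod gene on the low side was Gnat1, rod transducin (-0.38, SE 0.08), and the largest on the high side was Reep6, a membrane-shaping protein of rods (0.20, SE 0.08). Of 12 cone markers, 0 were higher and 9 lower without overlap, with a median of -0.34 and a summed level of 1344 and 1474 TPM in the NC libraries and 1279 and 1189 TPM in the antagomir libraries. Opn1sw had -0.82 (SE 0.14) and Opn1mw, the other cone opsin, -1.09 (SE 0.35). The ribbon synapse genes had a median between these lists, as did the terminal's other lists and all tested genes (0.0007). The part of rod and cone markers in the values of the ribbon synapse genes was not tested.

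**Figure D5:**
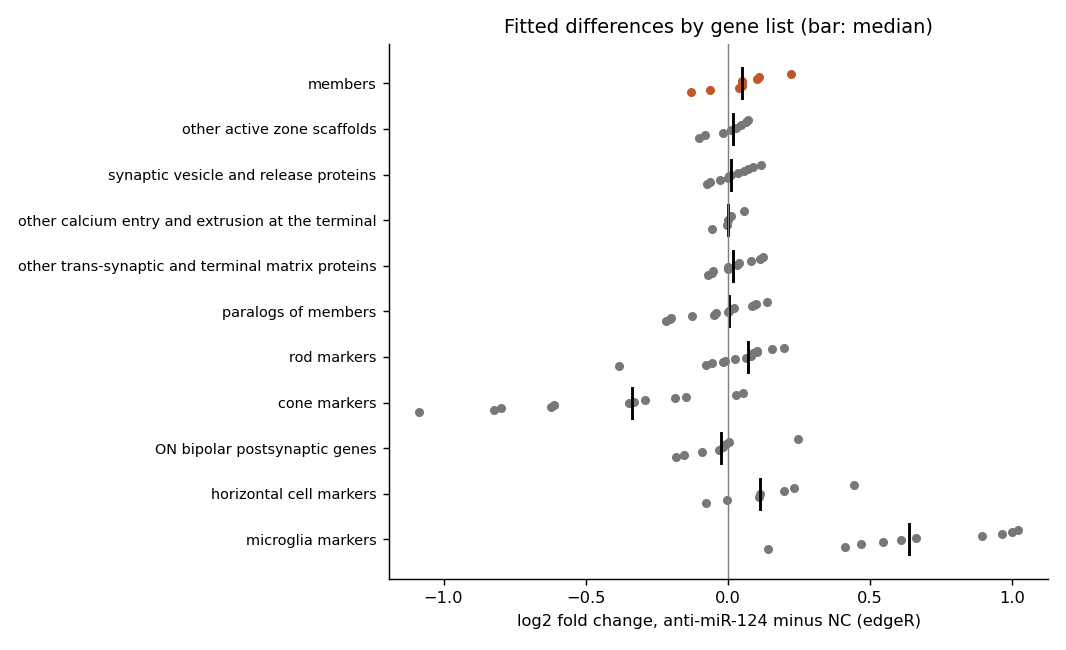
Log2 fold changes from edgeR, anti-miR-124 minus NC, with 1 point per gene and a bar at each list's median, for the ribbon synapse genes (orange) and 10 other lists (grey). The medians of the ribbon synapse genes (0.05) and of the terminal's other genes (0.0023 to 0.02) lie near 0, whereas cone markers (-0.34) and microglia markers (0.64, from pair B at 1.49 with pair A at -0.09) lie away from it.

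On the postsynaptic side, 8 genes of ON bipolar dendrites had a median of -0.02, with 0 higher and 1 lower in both pairs, and 9 bipolar cell markers had -0.03. The 7 horizontal cell markers had a median of 0.11, with 4 higher and 1 lower without overlap, among them Lhx1 (0.44, SE 0.17) and Onecut2 (0.23, SE 0.08), transcription factors of these cells. Amacrine cell markers had a median of -0.0088 (9 genes), retinal ganglion cell markers 0.07 (10 genes), Müller glia markers 0.03 (9 genes), dividing cell markers 0.06 (8 genes), microglia markers 0.64 (10 genes), pigment epithelium markers 0.47 (10 genes) and lens genes -7.64 (19 genes). Ganglion cell markers, like Pclo, had opposite signs in the pairs, pair A alone giving 0.45 and pair B -0.48. The summed level of ganglion cell markers was 1052 and 1352 TPM in the NC libraries and 1562 and 981 TPM in the antagomir libraries. The microglia median was -0.09 in pair A but 1.49 in pair B, where the antagomir library held 427 TPM of these markers against 158 to 198 TPM in the other 3 libraries. The pigment epithelium median was 0.80 in pair A but 0.15 in pair B. Since bassoon, piccolo and PSD-95 also serve the synapses of other retinal neurons, these values stand beside those of Bsn, Pclo and Dlg4, and their part in them was not tested.

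The genes whose pattern over the 4 libraries was most like the mean of the 9 genes were Thap11, Nol6 and Rbm12, with Euclidean distances of 0.00235, 0.00318 and 0.00384 between centred log2 CPM. The mean pattern was -0.06 in the NC and 0.04 in the antagomir library of pair A, and 0.01 in both libraries of pair B. Within a distance of 0.05 of this mean lay 377 tested genes outside the set and, of the 9 genes, only Cacna2d4 (0.0453) and Ctbp2 (0.0486). Bsn (0.257), Cacna1f (0.203) and Pclo (0.193) lay farthest from it, so the mean pattern described few of the genes it was taken from.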

How the data were processed

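The file deposited by the authors holds raw counts of reads for each gene in the 4 libraries, with gene lengths and positions, and 4 further columns of RPKM, not used here. The submitters' processing notes name HISAT2 and mm9 without a role, but 99.83% of 36837 symbols matched to RefSeq overlapped it in position on GRCm38.p6, all 9 genes included. The counting tool and strand setting are not given in the sources used here. Columns were assigned by the eye they name.

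TPM values were computed from counts and lengths. Counts were tested with edgeR 4.0.16 (R 4.3.3; TMM, filterByExpr, glmQLFit and glmQLFTest, no covariate, two-sided, Benjamini-Hochberg, threshold 0.05), after the code was tested on simulated data. DESeq2 1.42.0 was an alternative, as were other scalings, no filter, a replicate block and leaving out each library. An exact permutation test of 2 against 2 cannot go below p = 0.333. No libraries were duplicates, with a chi-square per degree of freedom of at least 3.44.

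To check the pairing, deviations from the group mean were correlated over genes between libraries of 1 number (r = -0.17). With 2 libraries per group this cannot tell whether the numbers pair the libraries, and the main test did not use them. The 9 genes and the other lists were chosen with earlier results of these data known. From each list, the 2 genes of highest mean TPM and the 2 of largest log2 fold change with the same sign in both pairs could be named, and the 3 genes nearest in pattern. Other named genes (the remaining relatives, the Nrl level and Lrtm2) and the view by gene length were added after values were seen. Python 3.11.15 was used for the other steps. Seed matches of miR-124-3p were not run. Promoter windows came from RefSeq.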

Additional observations from a re-analysis of the deposited data

How the results depend on the processing

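Of 108 recomputed fold changes of single genes, 106 kept their direction and their side of the threshold, and the smallest adjusted p of a ribbon synapse gene over the alternatives was 0.252. Without the NC library of pair A, Pclo turned to -0.0443 and Cacna2d4 to -0.0270, and on leaving out each library in turn they reached 0.284 and 0.112. With the replicate block, 0 genes of all tested were called (376 at an unadjusted p under 0.05) and Bsn had 0.232. The numbers may not pair the libraries, and with the pairs crossed 160 genes were called, 1 ribbon synapse gene (Bsn) had an unadjusted p under 0.05, and 1 instead of 2 was lower in both pairs. The number of genes called was 0 as reported, 379 with no filter, 33 with DESeq2 and 0 to 256 on leaving out 1 library. The number of ribbon synapse genes at an unadjusted p under 0.05 was 0 as reported, 1 with no filter (Bsn) and 0 to 2 on leaving out 1 library (Unc119 without the antagomir library of pair A, Bsn and Pclo without the NC library of pair B). The number with both antagomir libraries lower was 1 as reported, 2 by total counts or the upper quartile and 1 to 3 on leaving out 1 library, and the number higher was 5 as reported, 4 with DESeq2 or its size factors and 5 to 7 on leaving out 1 library. With a library left out, the shares of all tested genes also went up, to between 30.7% and 35.2% lower and 31.5% and 36.8% higher. The number higher in both pairs was also 4 with DESeq2 or its size factors. The cause of the other changes was not tested. Counts over pairs could not be given with a library left out. For Cabp4, with the fewest counts, counting error alone gave -0.27 to 0.13 in pair A and -0.25 to 0.15 in pair B. Its fitted interval of -0.28 to 0.16 rests on the libraries of both pairs, so the widths cannot be compared directly.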
